A study of Mus musculus with 22 samples.

Results

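The genes described here encode the nuclear-coded subunits of the mitochondrial respiratory chain and ATP synthase, together with assembly factors that share their symbols. They were chosen by name: a protein-coding gene with a RefSeq probe on the array and a symbol beginning Nduf, Sdh, Uqcr, Cox4, Cox5, Cox6, Cox7, Cox8 or Atp5, with pseudogenes and predicted genes left out. In RefSeq 100 protein-coding genes fit these symbols, 97 of them had a RefSeq probe, and 95 passed the filter on dim probes and were tested among 22347 genes in all. Cox7b2 and Cox8c, which encode tissue-restricted cytochrome c oxidase subunits, did not pass that filter and have no value here. The 95 comprise 7 core and 29 accessory subunits of complex I, 8 complex I assembly factors (Ndufaf genes), 4 subunits of complex II and 4 of its assembly factors (Sdhaf genes), 8 genes of complex III, 18 of complex IV and 17 of ATP synthase.

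Transcript levels were measured on 22 one-colour Agilent arrays. The cells were bone marrow-derived macrophages (BMDM), grown from mouse marrow in culture. Male C57BL/6 mice aged 10 to 14 weeks were wild type (wt), deficient for the kinase MK2 (MK2-/-) or deficient for MK2 and its relative MK3 (MK2/3-/-), and the deficient animals had the C57BL/6J background. Cells of all groups were differentiated for 9 days with 10 ng/ml macrophage colony-stimulating factor (M-CSF) and moved to medium without it before the treatment, which was 360 min with 100 ng/ml lipopolysaccharide (LPS), a component of the bacterial outer membrane, or in medium. There were 3 LPS-treated and 4 medium-treated wt arrays, 4 and 4 MK2-/- arrays, and 4 and 3 MK2/3-/- arrays. The methods describe the replicates as independent experiments, so p-values measure the spread between experiments, and which animals the LPS and medium arrays of an experiment shared is not stated in the sources used here.

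The respiratory chain lies in the inner mitochondrial membrane. Complexes I and II feed electrons from NADH and succinate to ubiquinone, complex III passes them to cytochrome c, complex IV hands them to oxygen, and ATP synthase (complex V) uses the proton gradient that complexes I, III and IV build. Complex II is also succinate dehydrogenase of the tricarboxylic acid cycle. Assembly factors help to build a complex and are not part of the finished enzyme. Macrophages exposed to LPS are known for a shift from respiration towards glycolysis.

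Each genotype had a slide of its own, scanned in a single session, so that in direct comparisons of genotypes the genotype and the slide cannot be told apart, whereas LPS and medium were compared within a slide. Per array, the median processed signal was 32.7 to 108, and 61.1% to 78% of probes were well above background. Mapkapk2, which encodes MK2, lay between 10.77 and 15.33 (log2 signal) on wt arrays and was lower on every knockout array of the same treatment, and Mapkapk3, which encodes MK3, reached at most 11.40 on MK2/3-/- arrays and at least 11.92 on all others. Some arrays stood apart. The LPS-induced cytokine gene Il6 was at 13.36 in replicate 4 of medium-treated wt BMDM, compared with 6.41 to 10.02 in the other wt medium arrays, and replicate 3 of LPS-treated MK2-/- BMDM had 2927 spots marked by the scanner software, compared with 115 to 261 elsewhere. Leaving out the first array gave 61 called genes of the set in wt, leaving out the second gave 65 in MK2-/- BMDM, and the counts with all arrays were 64 and 69.

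Of 8 macrophage markers 7 were tested (all but Cd68), and the log2 of their summed signal was 18.75 to 19.53 over all arrays. In wt it was lower on every LPS array (18.75 to 18.92) than on every medium array (19.09 to 19.53), as it was in MK2/3-/- BMDM (18.82 to 19.10 and 19.23 to 19.52), and in MK2-/- BMDM the groups overlapped (19.04 to 19.27 and 19.19 to 19.49). Of 6 lymphocyte markers 5 were tested, and their sum in wt was 9.90 to 10.80 in medium and 10.94 to 11.42 with LPS. Sums of 5 neutrophil markers (10.95 to 12.65 over all arrays), 5 dendritic cell markers (15.47 to 17.27) and 5 stromal markers (9.41 to 16.66) overlapped between LPS and medium in each genotype, except that the dendritic cell sum in MK2/3-/- BMDM was 16.49 to 17.14 in medium and 15.95 to 16.30 with LPS. The lymphocyte sum overlapped between LPS and medium in both knockouts. Each sum is given as the log2 of the summed signals, in which the brightest marker weighs most. The part of these markers in the results below was not tested, and in such bulk samples fewer cells of a type and less RNA per cell cannot be told apart.

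LPS against medium was compared first, to see how the respiratory chain genes responded in each genotype. The signal is the log2 processed signal after quantile normalisation, and a gene was called at a limma adjusted p below 0.05 over all tested genes. In wt BMDM 61 of the 95 genes were called lower after LPS, compared with 23.5% of all genes, and 3 were called higher, compared with 18.6% of all genes. The counts in MK2-/- BMDM were 66 lower (27.2% of all genes) and 3 higher (17.6% of all genes). Those in MK2/3-/- BMDM were 66 lower (28% of all genes) and 4 higher (20.3% of all genes). The median change was -0.62 in wt, -0.64 in MK2-/- and -0.68 in MK2/3-/- BMDM, against -0.04, -0.01 and 0.02 for all genes. The same 53 genes were called lower in each of the 3 genotypes, as were 19.7% of all genes. Ndufs4, Cox4i2 and Cox6b2 were called higher in all 3, and 17 genes were called in none. The shares of all genes for these counts are not given here, so neither count is read as a trait of the set.

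Most of these genes are bright, and the calls were read against bright genes too. Of the 75 with a mean log2 signal of at least 12, 55 were called lower in wt and 56 in each knockout, compared with 40.5%, 44% and 45.2% of all genes that bright. Their median change was -0.69 in wt, while the median over the 3363 bright genes was -0.33.

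The size of this shift, and for many subunits its direction, depended on how arrays were brought to a common scale. Quantile normalisation gives each array the same distribution. On the scanner scale, LPS arrays of wt had a lower 75th percentile of the log2 signal than medium arrays (by 0.77 in the mean, 9.49 against 8.72) and a slightly higher 97th percentile (14.99 against 15.09). On each array the median signal of the 95 genes lay above that of all genes. In wt the mean of this distance over arrays changed by 0.06 from medium to LPS in the scanner values and by -0.57 after quantile normalisation. In MK2-/- BMDM these values were -0.01 and -0.58, and in MK2/3-/- BMDM -0.04 and -0.59.

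When the 75th percentile of each array was subtracted instead, the median of all genes moved to 0.30 in wt, 0.28 in MK2-/- and 0.29 in MK2/3-/- BMDM, and the median of the 95 genes to 0.02, 0.01 and 0.11. Relative to the median gene, the set was thus at -0.28, -0.28 and -0.18. Spike-in scaling gave -0.28, -0.27 and -0.18, and median centring -0.28, -0.28 and -0.18. These are medians of the changes gene by gene, whereas the distances above compared median signals on each array. Under 75th percentile scaling 7 of the 95 genes were called lower in wt (18.6% of all genes), 17 in MK2-/- (20.7%) and 15 in MK2/3-/- BMDM (21.8%). Those called higher were 9 (28.5%), 11 (23.9%) and 14 (25.7%). The shares called lower were thus no larger than among all genes. Under all 7 sets of values that were compared, the median of the set lay below the median of all genes in each genotype.

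**Figure D1:**
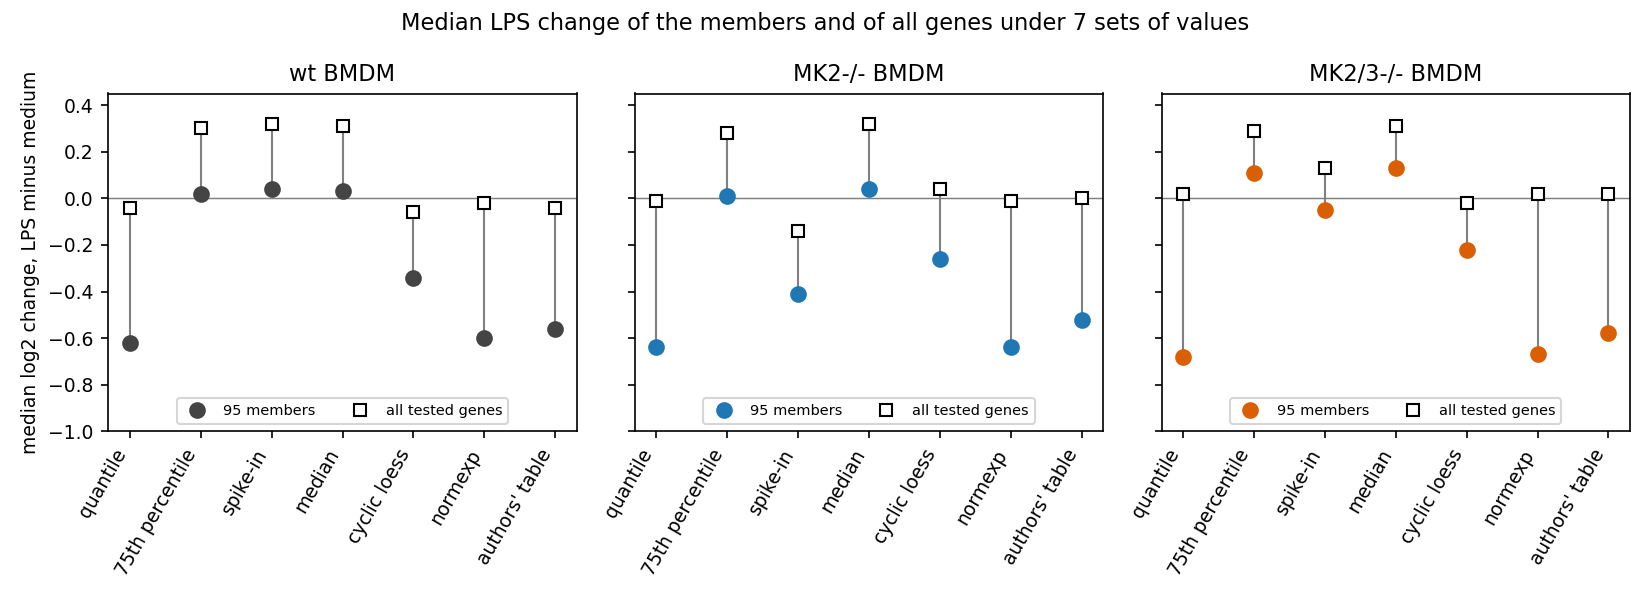
Median log2 change from medium to LPS of the 95 respiratory chain genes (filled circles) and of all tested genes (open squares) under 7 sets of values, with a panel for each genotype and grey lines joining both medians. The circle lies under the square in every case, by 0.58 in wt after quantile normalisation and by 0.28 after 75th percentile scaling, and after 75th percentile scaling it lies at 0.02 in wt, 0.01 in MK2-/- and 0.11 in MK2/3-/- BMDM.

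Complex I takes up electrons from NADH, and its core subunits carry the flavin and the iron-sulphur clusters. Of its 7 nuclear core subunits 6 were called lower in wt, 7 in MK2-/- and 6 in MK2/3-/- BMDM, with medians of -0.63, -0.94 and -0.79. Under 75th percentile scaling these medians were -0.04, -0.35 and -0.30. Ndufs1, the largest core subunit, read 13.20, 12.73 and 12.93 on the wt LPS arrays and 13.78, 13.42, 13.32 and 13.81 on the wt medium arrays. The LPS arrays all lay below the medium arrays, and the log2 change was -0.63 in wt (SE 0.17, limma adjusted p 0.00622), -0.94 in MK2-/- and -0.85 in MK2/3-/- BMDM. Ndufv1, which binds the flavin, changed by -0.83, -1.07 and -1.05. Under 75th percentile scaling Ndufs1 was at -0.04 and Ndufv1 at -0.04 in wt.

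The 29 accessory subunits surround the complex I core. The calls were 21 lower and 1 higher in wt, 23 and 1 in MK2-/- and 22 and 1 in MK2/3-/- BMDM, with medians of -0.78, -0.86 and -0.83 (-0.06, -0.17 and -0.11 under 75th percentile scaling). Ndufb8, a membrane-arm subunit, was called lower in each genotype, at -1.0, -1.46 and -1.37. Under 75th percentile scaling it was at -0.19, -0.70 and -0.57 and was called in MK2-/- BMDM alone.

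The accessory subunit called higher was Ndufs4, which sits beside the NADH-oxidising module. It read 13.11, 12.86, 12.64 and 12.91 in medium and 13.45, 13.57 and 13.16 with LPS in wt BMDM. In MK2-/- BMDM it read 12.75, 12.34, 12.92 and 12.88 in medium and 13.61, 13.91, 13.52 and 13.21 with LPS, and in MK2/3-/- BMDM 12.86, 12.80 and 12.85 in medium and 13.97, 14.38, 13.79 and 13.91 with LPS. LPS arrays lay above medium arrays in each genotype. Its log2 change was 0.52 in wt (SE 0.19, limma adjusted p 0.0397), 0.84 in MK2-/- (SE 0.18, adjusted p 7.24e-04) and 1.17 in MK2/3-/- BMDM (SE 0.19, adjusted p 5.09e-05), or 1.08, 1.36 and 1.84 under 75th percentile scaling. The wt call was lost when 1 of 5 arrays was left out, at 0.43 and adjusted p 0.156 without LPS replicate 2, 0.44 and 0.108 without medium replicate 3, and 0.49, 0.51 and 0.53 without LPS replicate 1, medium replicate 2 and medium replicate 4, whereas the knockout calls held without any array and in all 14 alternatives.

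**Figure D2:**
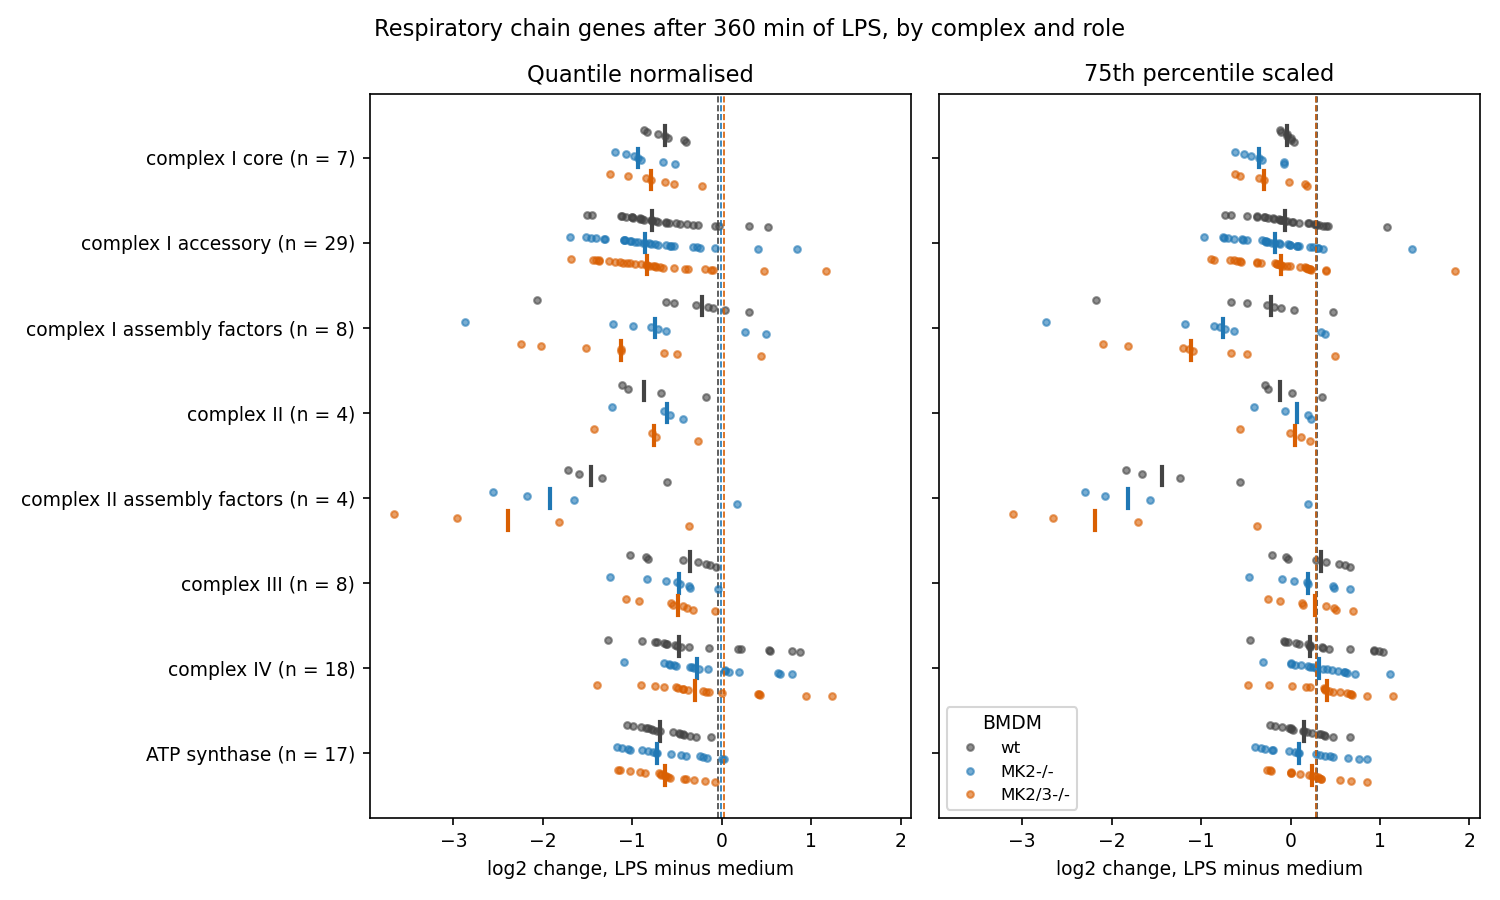
Log2 change from medium to LPS of each of the 95 genes, by complex and role, in 3 genotypes (colours), after quantile normalisation (left) and after 75th percentile scaling (right). Short bars are medians of a role and dashed lines the median of all tested genes, which moves from near 0 to about 0.30 with the scaling, so the complex III median in wt is -0.35 on the left and 0.34 on the right while complex II assembly factors stay at -1.46 and -1.44.

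Assembly factors held the lowest values of the set in each genotype. Of the 4 Sdhaf genes 3 were called lower in every genotype, with medians of -1.46, -1.92 and -2.39 (-1.44, -1.82 and -2.19 under 75th percentile scaling). Sdhaf1 serves the insertion of iron-sulphur clusters into succinate dehydrogenase. It read 10.98, 10.62, 10.28 and 10.81 in medium and 9.15, 8.47 and 9.24 with LPS in wt BMDM, so that the groups were far apart. Its log2 change was -1.72 in wt (SE 0.29, limma adjusted p 8.93e-05), -2.18 in MK2-/- and -2.96 in MK2/3-/- BMDM.

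Sdhaf3, which acts at the same step, read 8.32, 8.15, 8.09 and 8.51 in medium and 6.65, 6.59 and 6.79 with LPS in wt BMDM. The MK2-/- medium arrays read 7.96, 6.60, 8.47 and 8.45, where replicate 2 was low, and the LPS arrays 5.61, 5.47, 5.12 and 5.05. In MK2/3-/- BMDM the values were 8.23, 7.96 and 8.12 in medium and 2.98, 4.59, 4.47 and 5.73 with LPS. No LPS array reached the medium arrays of its genotype, and the LPS-treated MK2/3-/- arrays were the most spread, with the signal well above background on 3 of the 4. The change was -1.59 in wt (SE 0.46, adjusted p 0.00962 from limma), -2.56 in MK2-/- (SE 0.43, adjusted p 6.19e-05) and -3.66 in MK2/3-/- BMDM (SE 0.46, adjusted p 2.23e-06), and -1.12, -1.45 and -1.89 with the normexp background correction, where low signals are compressed. Sdhaf4, named here after its values were seen, changed by -1.34, -1.65 and -1.82. Sdhaf2, which attaches the flavin to Sdha and is likewise named after its value was seen, was not called in any genotype and was at -0.61, 0.17 and -0.37.

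Of the 8 complex I assembly factors 3 were called lower in wt, 6 in MK2-/- and 6 in MK2/3-/- BMDM, with medians of -0.22, -0.75 and -1.13 (-0.22, -0.76 and -1.11 under 75th percentile scaling). Ndufaf7, an arginine methyltransferase that modifies a core subunit, read 10.97, 10.99, 11.40 and 11.19 in medium and 9.27, 8.89 and 9.08 with LPS in wt BMDM. MK2-/- BMDM had 11.00, 11.25, 11.32 and 10.95 in medium and 8.29, 8.08, 8.16 and 8.51 with LPS, and in MK2/3-/- BMDM 10.90, 10.90 and 10.99 in medium and 8.63, 8.09, 9.05 and 8.97 with LPS. The log2 change was -2.06 in wt (SE 0.20, limma adjusted p 1.84e-07), -2.87 in MK2-/- (SE 0.19, adjusted p 4.89e-10) and -2.24 in MK2/3-/- BMDM (SE 0.20, adjusted p 3.39e-08). Ndufaf5, named because it was the single complex I assembly factor called higher, was at 0.44 in MK2/3-/- BMDM. A second, much dimmer probe of Ndufaf5 (mean log2 signal 3.61) went the other way and was not called. It was at -1.17 in wt, -0.99 in MK2-/- and -0.45 in MK2/3-/- BMDM.

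Ndufaf7, Sdhaf1, Sdhaf3 and Sdhaf4 were the 4 genes of the set called lower in all 3 genotypes under all 7 sets of values, a rule that 11.1% of all genes met. Under that rule 4 genes were called lower in wt (13.2% of all genes), 15 in MK2-/- (19.2%) and 9 in MK2/3-/- BMDM (18.5%), and 2, 1 and 1 were called higher (14.6%, 9.07% and 11.1%). The higher calls were Ndufs4 in each genotype and Cox4i2 in wt. Of the 15 lower calls in MK2-/- BMDM 9 were assembly factors, as were 8 of the 9 in MK2/3-/- and all 4 in wt.

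**Figure D3:**
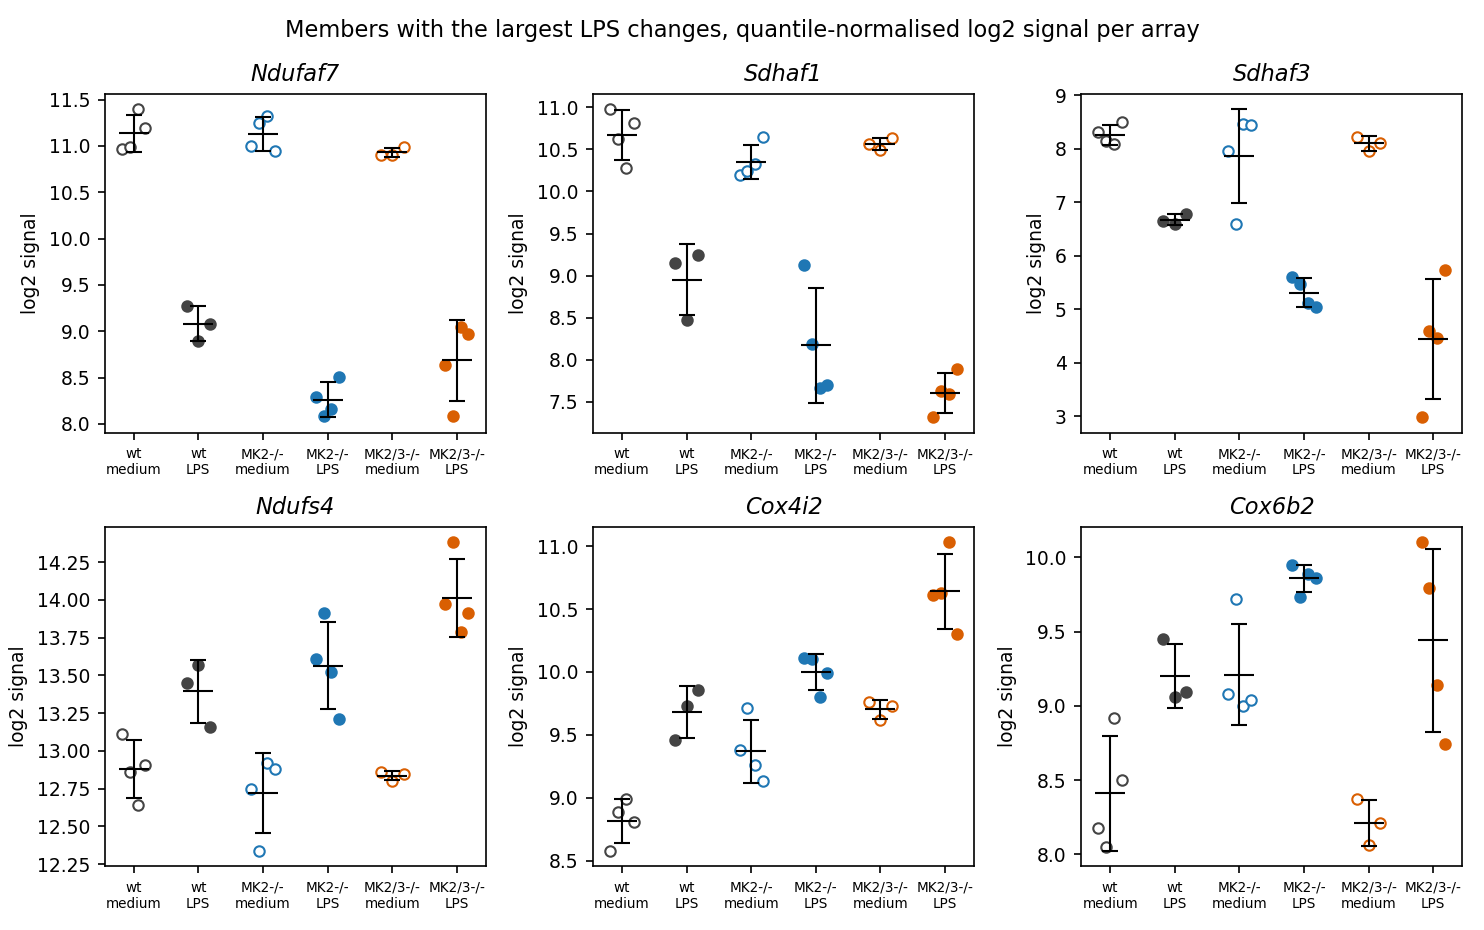
Quantile-normalised log2 signal of 6 genes on each array, with open points for medium and filled points for LPS, black bars for the mean and SD of a group, and a y axis that does not start at 0. Ndufaf7, Sdhaf1 and Sdhaf3 lie lower on every LPS array than on any medium array of the same genotype, and Ndufs4, Cox4i2 and Cox6b2 lie higher.

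The regions in front of 4 genes are given as examples. These genes moved in every genotype, Ndufs4 upwards and Ndufaf4, Ndufaf7 and Sdhaf3 downwards. They are only some of the 53 genes called lower and 3 called higher in all 3 genotypes, and Sdhaf1, Sdhaf4, Cox4i2 and Cox6b2 are among those not shown. The 4 windows therefore do not show how motifs and direction go together in the set. Each sequence is the 250 bases before the annotated start in RefSeq (build GRCm38.p6), read in the direction of the gene. They lie at chr13:114388095-114388344 on the minus strand for Ndufs4, and on the plus strand at chr4:24897833-24898082 for Ndufaf4, chr17:78936885-78937134 for Ndufaf7 and chr6:6955768-6956017 for Sdhaf3. Capitals mark the letters of 3 short motifs searched on both strands, GCATGCGC (bound by nuclear respiratory factor NRF1), CCGGAAG (bound by GABPA, also called nuclear respiratory factor NRF2) and ATGGCGG (bound by YY1).
Ndufs4 promoter: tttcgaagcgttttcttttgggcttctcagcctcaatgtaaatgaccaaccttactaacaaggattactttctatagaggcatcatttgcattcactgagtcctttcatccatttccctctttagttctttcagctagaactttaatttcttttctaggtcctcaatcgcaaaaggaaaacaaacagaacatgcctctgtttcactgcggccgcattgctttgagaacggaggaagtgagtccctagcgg
Ndufaf4 promoter: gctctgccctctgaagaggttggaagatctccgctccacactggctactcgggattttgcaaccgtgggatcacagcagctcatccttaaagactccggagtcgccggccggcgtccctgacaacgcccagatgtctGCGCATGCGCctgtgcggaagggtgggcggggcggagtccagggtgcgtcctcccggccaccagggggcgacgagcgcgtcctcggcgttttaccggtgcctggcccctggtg
Ndufaf7 promoter: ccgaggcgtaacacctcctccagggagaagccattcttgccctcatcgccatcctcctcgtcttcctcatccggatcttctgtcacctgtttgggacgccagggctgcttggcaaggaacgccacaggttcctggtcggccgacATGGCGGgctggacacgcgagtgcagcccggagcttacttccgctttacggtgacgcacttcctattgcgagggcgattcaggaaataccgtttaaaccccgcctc
Sdhaf3 promoter: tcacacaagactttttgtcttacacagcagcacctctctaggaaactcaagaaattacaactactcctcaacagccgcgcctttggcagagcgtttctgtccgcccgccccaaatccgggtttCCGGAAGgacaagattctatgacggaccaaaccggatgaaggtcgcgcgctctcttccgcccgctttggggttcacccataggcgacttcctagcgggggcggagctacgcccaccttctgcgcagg
The Ndufaf4 window holds GCATGCGC on both strands in 1 overlapping stretch, the Ndufaf7 window ATGGCGG 106 bases before the start and the Sdhaf3 window CCGGAAG 127 bases before it. The Ndufs4 window, with 42% G and C bases compared with 66.4%, 60% and 56.8% in the others, holds none of the 3 strings.

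Of the 95 genes 79 had such a window. GCATGCGC stood in 9 of them (11.4%, compared with 3.32% of 17492 protein-coding genes), CCGGAAG in 16 (20.3%, compared with 10.2%) and ATGGCGG in 6 (7.59%, compared with 3%). At least 1 of the 3 stood before 23 of 52 genes called lower in wt (44.2%), 4 of 27 not called lower (14.8%) and 15.2% of all protein-coding genes. A match is a description of the letters, and the calls it is set beside were those of the quantile-normalised values. Under 75th percentile scaling 7 of the 95 genes were called lower in wt. Whether the motifs have a part in the LPS change was not tested.

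Complex II has 4 subunits, of which Sdha carries the flavin, Sdhb the iron-sulphur clusters, and Sdhc and Sdhd anchor them in the membrane. In wt 3 were called lower, in MK2-/- BMDM 4 and in MK2/3-/- BMDM 3, with medians over the 4 of -0.87 in wt, -0.61 in MK2-/- and -0.76 in MK2/3-/- BMDM (-0.12, 0.07 and 0.05 under 75th percentile scaling). Sdhb read 15.72, 15.74, 15.98 and 15.68 in medium and 14.73, 14.71 and 14.58 with LPS in wt BMDM, a change of -1.11 (SE 0.17, limma adjusted p 2.51e-05), with -1.23 in MK2-/- and -1.43 in MK2/3-/- BMDM. It lay below 0 under each scaling and was at -0.28, -0.41 and -0.57 with the 75th percentile, where it was called in MK2/3-/- BMDM alone. Sdha was at -0.68, -0.43 and -0.74 and Sdhd at -1.05, -0.64 and -0.78, but under 75th percentile scaling Sdha was at 0.02, 0.23 and -0.01 and Sdhd at -0.25, 0.20 and 0.12. Sdhc was called in MK2-/- BMDM alone of the 3, at -0.58, with -0.18 in wt and -0.26 in MK2/3-/- BMDM.

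Complex III passes electrons from ubiquinol to cytochrome c. Of its 8 genes 4 were called lower in wt, 6 in MK2-/- and 5 in MK2/3-/- BMDM, with medians of -0.35, -0.48 and -0.49 that turned to 0.34, 0.19 and 0.27 under 75th percentile scaling. Uqcrfs1, the Rieske iron-sulphur protein, was not called, at -0.06, -0.04 and -0.07. The core proteins Uqcrc1 and Uqcrc2 were at -0.27 and -0.18 in wt, neither called, and at -0.47 and -0.50 in MK2-/- BMDM, both called. In the latter they turned to 0.04 and 0.18 under 75th percentile scaling.

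Complex IV, cytochrome c oxidase, has subunits with several tissue isoforms, and genes of the set were called in both directions. Of 18 genes 10 were called lower and 2 higher in wt, 6 and 2 in MK2-/- and 9 and 2 in MK2/3-/- BMDM, with medians of -0.48, -0.28 and -0.30, or 0.22, 0.32 and 0.41 under 75th percentile scaling. Cox4i1, the common isoform of subunit 4, was at -0.46 in wt, -0.64 in MK2-/- and -0.38 in MK2/3-/- BMDM, and at 0.36, 0.05 and 0.47 under 75th percentile scaling. Cox5a, Cox6a1, Cox7a2 and Cox8a were likewise above 0 in all 3 genotypes under that scaling, at 0.43, 0.35, 0.09 and 0.20 in wt, against -0.37, -0.52, -0.64 and -0.62 after quantile normalisation. Cox7a2l, which helps to join complexes III and IV into supercomplexes, was called lower in each genotype, at -1.27, -1.09 and -1.39. Under 75th percentile scaling Cox7a2l was at -0.45, -0.31 and -0.47 and was called in no genotype.

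Cox4i2, the isoform of subunit 4 known from lung and hypoxic cells, was called higher. In wt BMDM it read 8.58, 8.89, 8.99 and 8.81 in medium and 9.46, 9.73 and 9.86 with LPS. MK2-/- BMDM had 9.38, 9.71, 9.26 and 9.13 in medium and 10.11, 10.10, 9.80 and 9.99 with LPS, and in MK2/3-/- BMDM 9.76, 9.62 and 9.73 in medium and 10.61, 10.63, 11.03 and 10.30 with LPS. Within each genotype the groups did not overlap. The log2 change was 0.87 in wt (SE 0.18, limma adjusted p 7.62e-04), 0.63 in MK2-/- (SE 0.17, adjusted p 0.00446) and 0.94 in MK2/3-/- BMDM (SE 0.18, adjusted p 2.54e-04), and scaling on spike-in transcripts left 0.18 (adjusted p 0.707) in MK2-/- and 0.70 (adjusted p 0.0778) in MK2/3-/- BMDM.

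Cox6b2, a testis isoform of subunit 6b, was at 0.79 in wt (SE 0.28, limma adjusted p 0.0287), 0.65 in MK2-/- and 1.23 in MK2/3-/- BMDM. The wt call was lost without 1 of 4 arrays (adjusted p up to 0.104, without LPS replicate 1) and the MK2-/- call without 1 of 14 (adjusted p up to 0.113, without medium replicate 3). The muscle isoforms Cox6a2 and Cox7a1 were not called, at 0.18 and 0.22 in wt. Ndufa4, now counted with complex IV, was called in wt at -0.75, and its paralogue Ndufa4l2 was not, at 0.54.

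ATP synthase has 17 genes in the set, of which 11 were called lower in wt, 11 in MK2-/- and 12 in MK2/3-/- BMDM, with medians of -0.69, -0.72 and -0.63, or 0.15, 0.09 and 0.24 under 75th percentile scaling. Atp5b, the catalytic beta subunit, was not called, at -0.12, 0.00 and -0.19, and was at 0.66, 0.77 and 0.68 under 75th percentile scaling. Atp5c1, the gamma subunit of the central stalk, read 15.57, 15.59, 15.70 and 15.59 in medium and 14.68, 14.59 and 14.39 with LPS in wt BMDM. Its change was -1.06 in wt (SE 0.14, limma adjusted p 7.17e-06), -1.02 in MK2-/- and -1.16 in MK2/3-/- BMDM. Under 75th percentile scaling it was at -0.23, -0.20 and -0.26 and was no longer called in any genotype. The 3 genes Atp5g1, Atp5g2 and Atp5g3 encode one and the same mature ring subunit. In wt they were at -0.42, -0.90 and -0.48, and of these Atp5g2 alone was called.

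A further 31 probes measured 24 of the genes. In wt 20 of them were called together with the chosen probe, in MK2-/- 19 and in MK2/3-/- BMDM 21, and in each case all had the same sign. In each genotype 2 further probes differed in sign from the chosen probe without both being called.

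Genotypes were then compared under LPS, on arrays that share LPS groups with the comparisons above. In MK2-/- against wt BMDM 7 of the 95 genes were called, all lower in MK2-/-, compared with 11.6% of all genes. In MK2/3-/- against wt BMDM 19 were called, 17 lower and 2 higher, compared with 23.7% of all genes, and in MK2/3-/- against MK2-/- BMDM 2, compared with 13.6%. The shares of the set were 7.37%, 20% and 2.11%, none above the share of all genes. The mean log2 spike-in signal, which spike-in scaling subtracts, itself differed between the slides. Under LPS it was 11.47 in wt, 10.78 in MK2-/- and 10.74 in MK2/3-/- BMDM. On spike-in scaling the median of all genes moved from -0.02 to 0.74 in MK2/3-/- against wt BMDM and that of the set from -0.27 to 0.09. Relative to all genes the set lay at -0.24 before and at -0.64 on spike-in scaling. In MK2-/- against wt BMDM these medians on spike-in scaling were 0.73 and 0.31, or -0.42 relative to all genes. There 7 genes of the set were called higher and 0 lower, and 6 and 0 in MK2/3-/- against wt BMDM. The share of all genes called on spike-in scaling is not given here.

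Some marker sums differed between genotypes without overlap. Under LPS the lymphocyte sum was 11.70 to 12.13 in MK2-/- and 10.94 to 11.42 in wt BMDM, and the macrophage sum 19.04 to 19.27 and 18.75 to 18.92. The neutrophil sum under LPS was 11.79 to 12.37 in MK2/3-/- BMDM, above wt (11.20 to 11.58) and MK2-/- BMDM (10.95 to 11.59). In medium the neutrophil sum was 12.13 to 12.51 in MK2/3-/- and 11.34 to 11.66 in wt BMDM, and the lymphocyte sum 11.13 to 12.30 in MK2-/- and 9.90 to 10.80 in wt BMDM. The part of these markers in the differences between genotypes was not tested.

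Ndufaf6, a complex I assembly factor, read 9.04, 8.95 and 9.21 in LPS-treated wt BMDM, 7.48, 7.30, 7.37 and 7.59 in MK2-/- and 6.02, 7.01, 7.46 and 8.16 in MK2/3-/- BMDM. All knockout arrays lay below all wt arrays. The log2 difference from wt was -1.63 in MK2-/- (SE 0.34, limma adjusted p 0.00782) and -1.90 in MK2/3-/- BMDM (SE 0.34, adjusted p 8.97e-04), and on spike-in scaling -0.78 and -1.01 (adjusted p 0.162 and 0.0706). Ndufaf4 differed from wt by -0.87 in MK2-/- and -1.55 in MK2/3-/- BMDM (limma adjusted p 0.0159 and 1.1e-04), and by -0.21 and -0.86 on spike-in scaling (adjusted p 0.707 and 0.0933). Its MK2-/- call was also lost without wt LPS replicate 1, at -0.71 (adjusted p 0.0742).

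Sdhaf3 was lower in MK2/3-/- than in wt BMDM, at -2.23 (limma adjusted p 0.00236), and at -0.86 (adjusted p 0.177) on spike-in scaling. Atp5g1 was lower than in wt both in MK2-/- BMDM, at -0.84 (adjusted p 0.0411), and in MK2/3-/- BMDM, at -0.92 (adjusted p 0.0148). On spike-in scaling these values were -0.44 and -0.63 (adjusted p 0.449 and 0.26). For Atp5g1 the LPS-treated MK2/3-/- arrays overlapped the wt arrays, whereas the MK2-/- arrays did not. The MK2-/- call was lost without 1 of 8 arrays, with an adjusted p of up to 0.15 without wt LPS replicate 1, and the MK2/3-/- call without wt LPS replicate 1, at -0.77 (adjusted p 0.0801).

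Cox4i2 had the largest difference upwards among the called genes, 0.96 in LPS-treated MK2/3-/- against wt BMDM (SE 0.18, limma adjusted p 0.00124), and was also above MK2-/- BMDM, by 0.64 (SE 0.17, adjusted p 0.0162, 0.51 with 0.0544 without MK2/3-/- LPS replicate 3, and 0.47 with 0.414 on spike-in scaling). Ndufs4 was higher than wt by 0.62 (adjusted p 0.0282, and not called without wt LPS replicate 1, wt LPS replicate 3 or MK2/3-/- LPS replicate 2, at 0.65, 0.50 and 0.49), and by 0.45 (adjusted p 0.112) under 75th percentile scaling.

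In medium 7 genes were called in MK2-/- against wt BMDM (8.88% of all genes), 1 in MK2/3-/- against wt BMDM (2.02% of all genes) and 0 in MK2/3-/- against MK2-/- BMDM (2.83% of all genes), where limma gave 9 at an unadjusted p below 0.05 and the methods' t-test 12. The one gene called in MK2/3-/- BMDM was Cox4i2, which was higher by 0.89 (SE 0.18, limma adjusted p 0.0236). It was called higher under all 7 sets of values, but not without 1 of 4 arrays (adjusted p up to 0.128, without MK2/3-/- medium replicate 1). In MK2-/- BMDM Cox4i2 and Atp5d were higher, by 0.55 and 0.54, and Ndufb2, Cox7a2 and Ndufb4 were lower, at -0.75, -0.66 and -0.60. On spike-in scaling these last 3 turned to 0.25, 0.27 and 0.34, while the median of all genes was 1.18 and that of the set 0.76. The 3 genes thus lay below both medians there. In medium the mean log2 spike-in signal was 12.26 in wt and 10.84 in MK2-/- BMDM. Each of these 5 calls was lost without 1 of at least 5 arrays, with an adjusted p of up to 0.158 for Ndufb2 without MK2-/- medium replicate 2.

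The LPS response itself was compared between genotypes through the interaction of genotype and treatment, in which an additive effect of the slide cancels. Between MK2-/- and wt BMDM limma called 0 of the 95 genes (0% of all genes, 4 genes of the set at an unadjusted p below 0.05), and between MK2/3-/- and MK2-/- BMDM also 0 (0.0671% of all genes, 3 at an unadjusted p below 0.05). Between MK2/3-/- and wt BMDM 1 gene was called (0.689% of all genes), Ndufaf4, an assembly factor of complex I.

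Ndufaf4 read 10.50, 10.18, 10.06 and 10.08 in medium and 9.92, 9.21 and 9.62 with LPS in wt BMDM. MK2-/- BMDM had 9.56, 10.06, 9.76 and 10.32 in medium and 8.63, 8.93, 8.78 and 8.50 with LPS, and in MK2/3-/- BMDM 10.07, 10.24 and 9.87 in medium and 8.08, 8.03, 7.71 and 8.33 with LPS. Medium arrays of the 3 genotypes overlapped, while the LPS arrays of the genotypes were separate, with wt at the top and MK2/3-/- at the bottom. The log2 change with LPS was -0.62 in wt (SE 0.21, limma adjusted p 0.024), -1.21 in MK2-/- (SE 0.20, adjusted p 3.87e-05) and -2.02 in MK2/3-/- BMDM (SE 0.21, adjusted p 1.95e-07). The wt call was lost without wt LPS replicate 2 (-0.43, adjusted p 0.158), wt LPS replicate 3 or wt medium replicate 1. The response of MK2/3-/- BMDM differed from that of wt by -1.40 (SE 0.30, adjusted p 0.0401) and that of MK2-/- from wt by -0.59 (adjusted p 0.666).

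This interaction call was close to the threshold. It was not made in 5 of 12 alternatives. These were 75th percentile scaling (-1.15, adjusted p 0.15), spike-in scaling, median centring, cyclic loess and a fit of only the groups compared. Over the 12 alternatives the values ran from -1.41 to -1.01, with a limma adjusted p of up to 0.998. The call was also lost when 1 of 12 arrays was left out, with values from -1.59 to -1.24 over all 22 arrays left out in turn and an adjusted p of 0.112 at most, without MK2/3-/- medium replicate 2. A second, dimmer probe of Ndufaf4 gave LPS changes of -1.24, -2.32 and -3.37 and an interaction of -2.13 (adjusted p 0.0667 over probes). Other assembly factors, named after their values were seen, were not called. Ndufaf3, Sdhaf3, Sdhaf1 and Ndufaf6 were at -1.03, -2.07, -1.24 and -1.37 (limma adjusted p 0.0938, 0.157, 0.178 and 0.223).

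**Figure D4:**
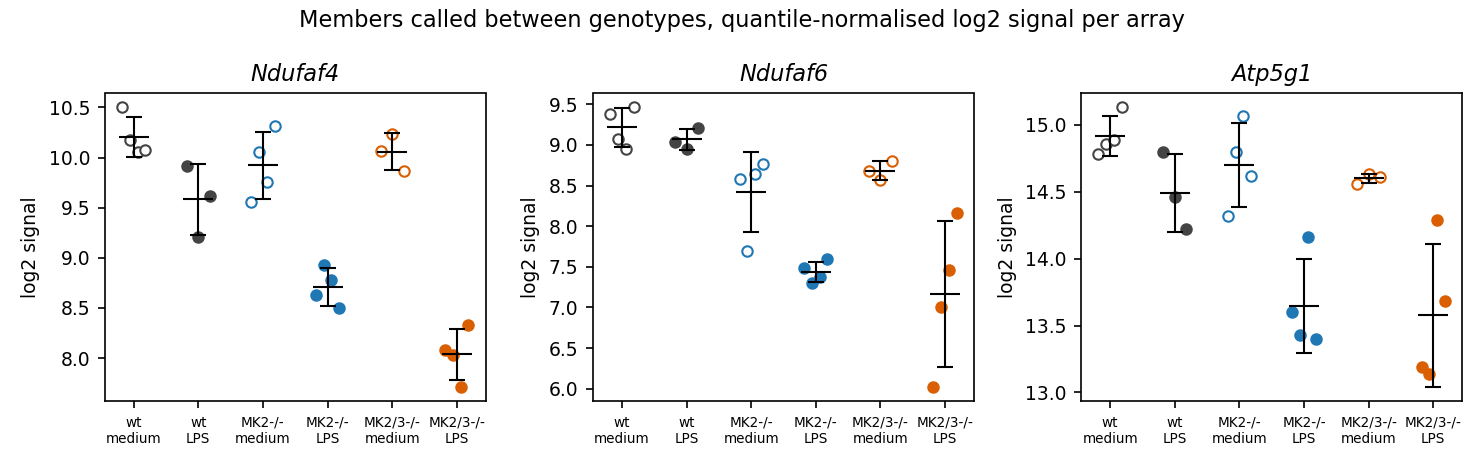
Quantile-normalised log2 signal of Ndufaf4, Ndufaf6 and Atp5g1 on each array, with open points for medium, filled points for LPS, black bars for the mean and SD of a group, and a y axis that does not start at 0. LPS-treated wt arrays of Ndufaf4 and Ndufaf6 lie above all LPS-treated knockout arrays, and on spike-in scaling the differences of all 3 genes from wt keep their direction while none of them is called.

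Other genes of the pathway were counted from fixed lists. Of 32 partners outside the symbol rule, which are cytochrome c, further assembly factors and the ATP synthase inhibitor among others, 30 were tested. The calls were 5 higher and 10 lower in wt, 8 and 13 in MK2-/- and 7 and 10 in MK2/3-/- BMDM, and under 75th percentile scaling 11 and 8, 8 and 9, and 8 and 7. For comparison, of all genes 18.6%, 17.6% and 20.3% were called higher and 23.5%, 27.2% and 28% lower in these genotypes. The largest rise was that of Sco1, a copper chaperone of complex IV, at 2.53, 2.98 and 3.81, and the largest falls were those of Uqcc3, a complex III assembly factor, at -2.08 in wt and -2.59 in MK2-/- BMDM, and of Ecsit, a complex I assembly factor, at -2.93 in MK2/3-/- BMDM. These directions held under 75th percentile scaling, at 2.92 for Sco1 and -1.76 for Uqcc3 in wt.

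Of 15 regulators of mitochondrial gene expression 2 were called higher and 3 lower in wt, 5 and 5 in MK2-/-, and 2 and 6 in MK2/3-/- BMDM, and under 75th percentile scaling 4 and 3, 4 and 4, and 4 and 6. The 3 of 15 called lower in wt stand beside 23.5% of all genes. Hif1a, the hypoxia-inducible factor, rose most in each genotype, at 2.08, 2.84 and 2.12, and the lowest were Tfb2m, a mitochondrial transcription factor, at -1.49 in wt and -2.47 in MK2/3-/-, and Polrmt, the mitochondrial RNA polymerase, at -1.53 in MK2-/- BMDM. Of 14 tricarboxylic acid cycle genes 2 were called higher and 7 lower in wt, 1 and 9 in MK2-/-, and 0 and 10 in MK2/3-/- BMDM, and under 75th percentile scaling 3 and 1, 3 and 4, and 2 and 4. For comparison with both lists, of all genes 18.6%, 17.6% and 20.3% were called higher and 23.5%, 27.2% and 28% lower. Under 75th percentile scaling these shares were 28.5%, 23.9% and 25.7% higher and 18.6%, 20.7% and 21.8% lower. Dld, a subunit shared by several dehydrogenases, was highest in wt at 0.86, and Idh3g of isocitrate dehydrogenase lowest at -1.17 (-0.43 and no longer called under 75th percentile scaling). In the knockouts fumarase, Fh1, was lowest, at -1.97 in MK2-/- and -1.82 in MK2/3-/- BMDM (-1.64 and -1.51 under 75th percentile scaling).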

How the data were processed

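Per the labels and methods, the authors labelled 100 ng of RNA per sample with Cy3. The deposited scanner files (Feature Extraction 11.0.1.1) hold a background-corrected processed intensity and a raw median intensity per spot, as yet without normalisation across arrays. A log2 table deposited by the authors, quantile normalised and set to each probe's median per the methods, followed the scanner values with r of 0.993 to 0.999. Here the log2 processed signal was quantile normalised over 22 arrays. Control spots and marked spots were left out (among the 95 genes 1 value, of Uqcrh), and a probe had to exceed background clearly on 3 or more arrays. Probes were named through RefSeq (GRCm38.p6, while the array is annotated on mm9, so genes carry no coordinates), and each gene was represented by its brightest probe. A model with 6 group means was fitted with limma 3.58.1 in R 4.3.3, was tested on simulated data, and p-values were adjusted by Benjamini-Hochberg over 22347 genes.

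The members and lists were chosen with earlier results of these data known. Genes were named by role, by the 3 largest called rises and falls per LPS comparison, by up to 3 per direction and genotype comparison, and by an interaction call. Alternatives were 75th percentile scaling, normexp (offset 50, on the median signal), the authors' table, no dim filter, another probe choice, only the groups compared, array weights, the methods' t-test, replicate blocks and leaving out each array. Spike-in scaling (7 E1A control transcripts), median centring and cyclic loess were chosen after seeing the data, after the 75th percentile was seen to fall with LPS. The number of arrays limits the precision.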

Additional observations from a re-analysis of the deposited data

Results flagged for a closer look

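In 10 of 144 groups of 4 arrays examined over the 36 named genes, 1 array stood further from the other 3 than Dixon's 95% limit, and chance flags about 1 in 20 groups. In medium-treated MK2-/- BMDM replicate 2 stood apart for 4 genes, high for Cox4i1 at 17.16 (others 16.67 to 16.69, gap over range 0.959) and Cox6b2 at 9.72 (others 9.00 to 9.08, ratio 0.884), and low for Cox7a2 at 12.89 (others 13.77 to 13.91, ratio 0.863) and Uqcrc2 at 13.77 (others 13.96 to 14.00, ratio 0.85). In the same group replicate 3 was high for Cox6a1, at 17.79 (ratio 0.874). Replicate 2 of medium-treated wt BMDM was low for Ndufa4l2 at 5.22 (others 5.88 to 5.99, ratio 0.867) and for Cox6a1 at 17.57 (ratio 0.833), and replicate 3 was high for Atp5c1 at 15.70 (ratio 0.875). Among LPS-treated MK2-/- arrays, replicate 1 was high for Sdhb at 14.76 (ratio 0.865) and replicate 2 low for Atp5g2 at 15.25 (ratio 0.852). Without MK2-/- medium replicate 2, 74 genes of the set were called with LPS in MK2-/- BMDM, compared with 69.

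The LPS response of Ndufaf4 differed between MK2/3-/- and wt BMDM by the interaction term of limma, at -1.4 (SE 0.30, adjusted p 0.0401), with 4 of 4 LPS-treated MK2/3-/- arrays below all LPS-treated wt arrays. The call was lost in 5 of 12 alternatives.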

How the results depend on the processing

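The counts of called genes among the 95 moved by over 1.5 times as follows. For LPS against medium in wt, 64 calls became 16 with 75th percentile scaling, 6 with spike-in scaling, 15 with median centring and 36 with cyclic loess. For LPS against medium in MK2-/-, 69 calls became 28 with 75th percentile scaling, 18 with spike-in scaling, 26 with median centring and 43 with cyclic loess. For LPS against medium in MK2/3-/-, 70 calls became 29 with 75th percentile scaling, 10 with spike-in scaling, 25 with median centring and 38 with cyclic loess. For MK2-/- against wt under LPS, 7 calls became 24 with 75th percentile scaling, 40 with median centring, 11 with cyclic loess, 24 with array weights, 3 in a fit of only the groups compared, 37 with the methods' t-test unadjusted and 2 with the adjusted methods' t-test. For MK2/3-/- against wt under LPS, 19 calls became 41 with 75th percentile scaling, 6 with spike-in scaling, 63 with median centring, 32 with array weights, 2 in a fit of only the groups compared and 0 with the adjusted methods' t-test. For MK2/3-/- against MK2-/- under LPS, 2 calls became 1 with 75th percentile scaling, 4 with normexp background correction, 0 with spike-in scaling, 1 with median centring, 6 with array weights, 0 in a fit of only the groups compared, 4 with the methods' t-test unadjusted and 0 with the adjusted methods' t-test. For MK2-/- against wt in medium, 7 calls became 20 with 75th percentile scaling, 4 with the authors' value table, 48 with spike-in scaling, 35 with median centring, 13 with cyclic loess, 0 in a fit of only the groups compared, 22 with the methods' t-test unadjusted and 1 with the adjusted methods' t-test. For MK2/3-/- against wt in medium, 1 calls became 13 with 75th percentile scaling, 4 with spike-in scaling, 52 with median centring, 2 with array weights, 23 with the methods' t-test unadjusted and 0 with the adjusted methods' t-test. For MK2/3-/- against MK2-/- in medium, 0 calls became 1 with probe with the highest induction in wt, 2 with array weights and 12 with the methods' t-test unadjusted. For the interaction of MK2/3-/- and wt, 1 calls became 0 with 75th percentile scaling, 0 with spike-in scaling, 0 with median centring, 0 with cyclic loess, 4 with array weights, 2 with replicate block by letter and 0 in a fit of only the groups compared. With each array left out in turn, the counts ranged over 51 to 67 for LPS against medium in wt, 62 to 74 for LPS against medium in MK2-/-, 61 to 72 for LPS against medium in MK2/3-/-, 1 to 10 for MK2-/- against wt under LPS, 10 to 30 for MK2/3-/- against wt under LPS, 1 to 4 for MK2/3-/- against MK2-/- under LPS, 0 to 8 for MK2-/- against wt in medium, 0 to 1 for MK2/3-/- against wt in medium, 0 to 1 for MK2/3-/- against MK2-/- in medium and 0 to 3 for the interaction of MK2/3-/- and wt, and stayed at 0 for the other two interactions. The extremes are 1 without wt LPS replicate 1 for MK2-/- against wt under LPS, and 10 without wt LPS replicate 1 and 30 without MK2/3-/- LPS replicate 3 for MK2/3-/- against wt under LPS.

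Named genes changed sign against the quantile-normalised values as follows (log2 values), where at least 1 of the values compared was called. With 75th percentile scaling for LPS against medium in wt, Sdha was at 0.02, Uqcrc2 at 0.54, Cox4i1 at 0.36, Cox5a at 0.43, Cox6a1 at 0.35, Cox7a2 at 0.09, Cox8a at 0.20 and Atp5b at 0.66. With 75th percentile scaling for LPS against medium in MK2-/-, Sdha was at 0.23, Sdhd at 0.20, Uqcrc1 at 0.04, Uqcrc2 at 0.18, Uqcrfs1 at 0.67, Cox4i1 at 0.05, Cox5a at 0.61, Cox6a1 at 0.25, Cox8a at 0.12 and Atp5b at 0.77. With 75th percentile scaling for LPS against medium in MK2/3-/-, Sdhd was at 0.12, Uqcrc2 at 0.13, Uqcrfs1 at 0.70, Cox4i1 at 0.47, Cox5a at 0.68, Cox6a1 at 0.55, Cox7a2 at 0.63, Cox8a at 0.37, Atp5b at 0.68 and Atp5g3 at 0.32. With median centring for LPS against medium in wt, Sdha was at 0.03, Uqcrc2 at 0.54, Cox4i1 at 0.37, Cox6a1 at 0.36, Cox7a2 at 0.10, Cox8a at 0.21 and Atp5b at 0.67. With median centring for LPS against medium in MK2-/-, Sdha was at 0.26, Sdhd at 0.24, Uqcrc1 at 0.07, Uqcrc2 at 0.22, Cox4i1 at 0.08, Cox5a at 0.64, Cox6a1 at 0.28, Cox8a at 0.15 and Atp5b at 0.80. With median centring for LPS against medium in MK2/3-/-, Sdha was at 0.01, Sdhd at 0.14, Uqcrc2 at 0.15, Cox4i1 at 0.50, Cox5a at 0.70, Cox6a1 at 0.58, Cox7a2 at 0.65, Cox8a at 0.39, Atp5b at 0.71 and Atp5g3 at 0.34. With spike-in scaling for LPS against medium in wt, Sdha was at 0.04, Cox4i1 at 0.37, Cox6a1 at 0.37, Cox7a2 at 0.10 and Cox8a at 0.22. With spike-in scaling for LPS against medium in MK2/3-/-, Cox4i1 was at 0.32, Cox6a1 at 0.40, Cox8a at 0.21 and Atp5g3 at 0.16. With spike-in scaling for MK2-/- against wt in medium, where the median of all genes was 1.18, Ndufb2 was at 0.25, Cox7a2 at 0.27 and Ndufb4 at 0.34. With cyclic loess normalisation for LPS against medium in MK2-/-, Sdha was at 0.00.

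LPS and medium arrays of the same label letter came from animals of the same age in 10 of 10 pairs, compared with 5 of 30 pairs of unlike letters. Deviations from the group means correlated over 0.1 in 7 of these 10 pairs and in 5 of the 30, with -0.0855 as the lowest of the 10, and 7 of 10 pairs of the same replicate number did so. No label states a shared animal or day, so the pairing was kept out of the results above. With a replicate block by letter limma called 66 genes in wt with LPS, 70 in MK2-/- and 72 in MK2/3-/- BMDM, and by number 67, 70 and 70. By letter the interaction of MK2/3-/- and wt gave 2 calls. Over the 113 results on single genes, alternatives kept direction and side of the threshold in 1282 cases, lost the call in 202, gained it in 29 and turned the sign in 67, and leaving out an array kept them in 2328, lost the call in 150 and gained it in 8. The cause was not tested. The methods' t-test was not run on interactions. Signal near background limits Cox8b, which was well above background on 1 of 4 medium-treated wt arrays.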
